A study of Rattus norvegicus with 11 samples.

Results

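Canagliflozin given after isoproterenol was compared with isoproterenol alone in rat hearts, using 6 of the 11 RNA sequencing libraries of the series. The libraries were taken by their titles: 78, 133 and 143 carry both drugs, and 79, 98 and 119 carry isoproterenol only. All 6 came from cardiac tissue of Sprague Dawley rats, with no age, sex or heart chamber in the labels. Isoproterenol was given to each of these rats for 10 days (5 mg/kg per day). Canagliflozin was added in the second group for 4 weeks (3 mg/kg per day), while the isoproterenol labels mention neither a vehicle nor a matching interval. The time from the last isoproterenol dose to tissue collection is not given either, so a difference in that time and the drug itself cannot be told apart. Whether each library is 1 animal is not stated beyond its own number, so p-values here measure the spread between libraries, which may be technical.

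Isoproterenol stimulates beta-adrenergic receptors, and sustained dosing overloads the rodent heart, with myocyte loss, hypertrophy and scarring. Canagliflozin blocks the sodium-glucose cotransporter SGLT2 of the kidney tubule, so glucose and sodium are lost in the urine. Drugs of this class are used in heart failure, and their direct actions in heart muscle are debated. Genes are given by Ensembl ID, because 0 of 32883 IDs in the count table were paired with a symbol in the reference table. For the same reason cardiac, atrial and other cell type markers could not be looked up, and the labelled tissue was not checked against them.

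Total counts ranged from 17327491 to 25034831 per library, and 16916 to 17703 genes had a count. Library 98 (isoproterenol) and library 78 (canagliflozin) stood apart from the others of their groups. Distance was the root mean square of the differences in log2 CPM over 14211 tested genes, where CPM is the count scaled to 1e6 counts per library after TMM normalisation. Library 98 was 1.15 from library 79 and 1.16 from library 119, which lay 0.61 from each other. Library 78 was 0.90 from library 133 and 1.09 from library 143, which lay 0.57 apart. The nearest library to 98 was 78 (0.90), and the nearest to 78 was 79 (0.84), each in the opposite group. Library 98 held the highest or the lowest value of the 6 in 53.7% of genes, against 16.7% to 43.7% for the other libraries. The 10 genes with the most counts made up 22.6% of this library (Wilson interval at 95%: 22.57% to 22.61%, counting error only) and 26.7% to 34.0% of the others.

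**Figure D1:**
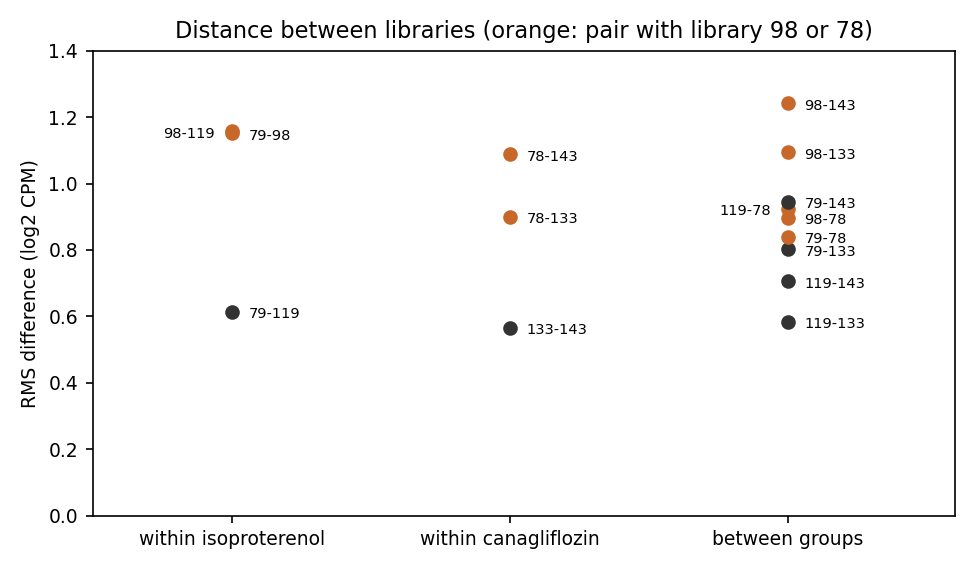
Distance between each pair of the 6 libraries, in log2 CPM (vertical axis), for pairs within the isoproterenol group, within the canagliflozin group and between the groups. Each point is 1 pair, named by its library numbers, and orange marks a pair that holds library 98 or 78. The 9 pairs between groups span 0.58 to 1.24, and the within-group pairs with library 98 or 78 lie between 0.90 and 1.16.

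Over all pairs of the 6 libraries, those from different groups were about as far apart as those from the same group. The mean distance was 0.893 over the 9 pairs between groups, 0.974 over the 3 isoproterenol pairs and 0.851 over the 3 canagliflozin pairs. The number of genes that differed by more than 2-fold ran from 1100 (libraries 119 and 133) to 4942 (98 and 143) between groups. Within groups it ran from 842 (133 and 143) to 4382 (79 and 98). Total counts, genes with a count, the share of the 10 top genes, the TMM factor and the length trend described further on were compared between the groups as 5 tests. Two-sided exact permutation p-values were 0.3 to 1, all 1 after Benjamini-Hochberg adjustment, where 3 against 3 libraries cannot go below 0.1.

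No gene passed the test for a difference between canagliflozin and isoproterenol alone. The edgeR quasi-likelihood test, fitted to these 6 libraries only, called 0 of 14211 genes (0%) with the threshold for the adjusted p at 0.05. The lowest adjusted p was 0.979. An unadjusted p under 0.05 was reached by 572 genes, or 4.03% of those tested, where evenly spread p-values would give 711. Of these, 460 were higher and 112 lower with canagliflozin. limma-voom called 0 genes, with 539 at an unadjusted p under 0.05. DESeq2 called 9 of the 19990 genes it tested (0.045%), 7 higher and 2 lower with canagliflozin.

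Most differences were small. The median log2 fold change, canagliflozin against isoproterenol, was -0.01, the quartiles were -0.26 and 0.29, and 95% of genes were within 1.09 of 0. At least 2-fold differences were found in 877 genes (6.17%), 654 higher and 223 lower with canagliflozin. This count moved with single libraries. It was 1117 higher and 664 lower without library 78, 1156 and 430 without library 119, and 892 and 344 without library 98. Without library 79 it was 773 and 383, and without library 133 it was 668 and 302. Without library 143 it was 476 and 293, with fewer higher genes than in the fit of all libraries. The 3 libraries of one group lay wholly above the 3 of the other in 1359 genes (9.56%), 848 with canagliflozin on top and 511 with isoproterenol on top. With 3 against 3 libraries, random order would give a share of 0.1, so this count by itself shows no group difference. Both conditions held in 275 of the 14211 tested genes, 228 higher and 47 lower. Thus 31.4% of the genes that were 2-fold apart had groups that did not overlap. In the remaining 2-fold differences at least 1 library lay within the range of the opposite group.

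**Figure D2:**
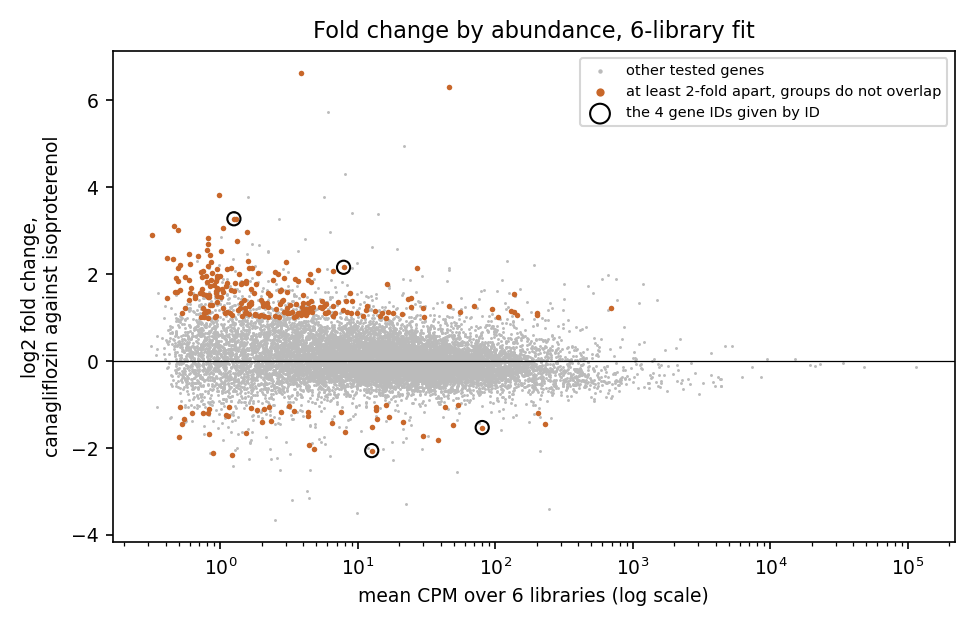
Log2 fold change of canagliflozin against isoproterenol (vertical axis) by mean CPM over the 6 libraries (horizontal axis, log scale), 1 point per tested gene. Orange marks the 275 genes at least 2-fold apart whose groups do not overlap, 228 of them above 0, and circles mark the 4 gene IDs described individually.

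The size of these differences followed abundance. Below a mean of 1 CPM, 19.9% of 901 genes were at least 2-fold apart, with a median standard error of 0.67 on the log2 scale. From 1 to 10 CPM it was 10.2% of 4679 genes, and from 10 to 100 CPM 2.24% of 7322 genes, with a median standard error of 0.30. At 100 CPM and over it was 4.2% of 1309 genes, and the standard error was again larger, at 0.41. The share of genes whose groups did not overlap varied less, from 7.1% in the most abundant class to 12% in the least abundant.

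The libraries could bound the difference for part of the genes. The 95% interval of the log2 fold change had a median half-width of 0.88. It lay wholly within 2-fold in either direction for 5121 genes, 36.0% of those tested. In the class from 10 to 100 CPM this share was 54.8%, and below 1 CPM it was 0%. For the remaining genes the interval reached past 2-fold on at least 1 side, so the absence of a call does not show that they were equal.

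Fold changes also followed the length of the gene model. In the 3553 shortest genes (up to 1511 bases) the median log2 fold change was -0.16, and in the 3553 longest (from 3909 bases) it was 0.14. Among genes at an unadjusted p under 0.05, the higher ones with canagliflozin numbered 43 of 82 in the shortest class and 196 of 210 in the longest. The trend was not shared by the libraries of a group. Relative to the mean of the 6 libraries, the median of the longest class minus that of the shortest was 0.55 in library 143 and 0.15 in library 133. It was -0.28 in library 78, below the isoproterenol libraries at -0.24 (79), -0.17 (98) and -0.01 (119). The canagliflozin values therefore spanned those of isoproterenol. With each library's length trend taken out as an offset, edgeR again called 0 genes, and 540 had an unadjusted p under 0.05, 378 higher and 162 lower.

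The IDs with the smallest p in each direction, among genes with a mean of at least 1 CPM over both groups, were ENSRNOG00000028137 and ENSRNOG00000015308 (higher) and ENSRNOG00000007607 and ENSRNOG00000012458 (lower). They were picked for their p in this comparison, so their separation is a description and supports nothing. ENSRNOG00000028137 (gene model of 9880 bases) was at 3.38, 1.98 and 3.27 CPM in isoproterenol libraries 79, 98 and 119 and at 15.3, 10.0 and 13.2 CPM in canagliflozin libraries 78, 133 and 143. The lowest canagliflozin library was well above the highest isoproterenol library, and libraries 98 and 78 held the lowest and the highest value of the 6. The log2 fold change was 2.16 (SE 0.338), or 4.47-fold with a 95% interval of 2.58 to 7.72, with an edgeR adjusted p of 0.979. With each library's length trend as an offset it was 1.93.

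ENSRNOG00000015308 (1830 bases) had few counts with isoproterenol alone, and its mean of 1.26 CPM passed the minimum only through the canagliflozin libraries. It had 3, 6 and 4 counts in libraries 79, 98 and 119 and 63, 40 and 34 in libraries 78, 133 and 143. On summed counts, 13 against 137, the ratio was 9.21 with an exact 95% interval of 5.21 to 17.7 that covers counting error only. The 3 canagliflozin libraries were all higher, and library 78, at 3.69 CPM, was more than those at 1.45 (133) and 1.71 (143). Its log2 fold change was 3.28 (SE 0.598) with all 6 libraries and 2.74 without library 78.

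ENSRNOG00000007607 (3180 bases) was the most abundant of the 4 IDs. It was at 127, 102 and 129 CPM in libraries 79, 98 and 119 and at 43.5, 33.2 and 47.2 CPM in libraries 78, 133 and 143. The groups were far apart relative to their spread, with means of 119 ± 14.9 CPM (SD, n = 3) and 41.3 ± 7.28 CPM (n = 3). The log2 fold change was -1.53 (SE 0.257), 2.89-fold lower with canagliflozin, with a 95% interval of 1.90 to 4.38.

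ENSRNOG00000012458 (2520 bases) varied more within the isoproterenol group. It was at 26.8, 23.4 and 10.8 CPM in libraries 79, 98 and 119 and at 5.56, 2.86 and 6.24 CPM in libraries 78, 133 and 143. The groups did not overlap, but library 119 lay nearer to the canagliflozin libraries than to 79. Its log2 fold change was -2.06 (SE 0.449).

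**Figure D3:**
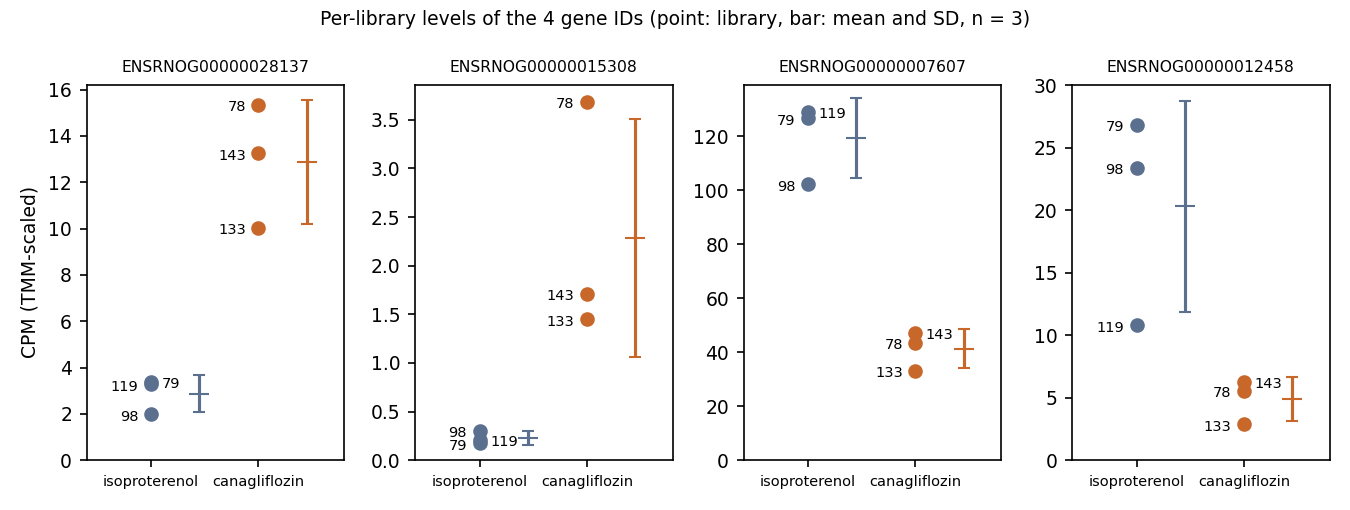
Level in CPM (vertical axis, a separate linear scale per panel starting at 0) of 4 gene IDs in the 3 isoproterenol and 3 canagliflozin libraries. Points are libraries with their numbers, and the bar beside them is the mean with its SD. The groups do not overlap in any panel, which the choice of these IDs by a small p favours.

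For the same 4 IDs, levels were also read in the 2 control libraries, whose labels name no treatment, and in the 3 exercise libraries. The exercise rats had the same isoproterenol course and were exercised for 60 min per day over 4 weeks. These levels are CPM scaled over all 11 libraries, where the 6 libraries have values slightly below those given. The 2 control libraries were at 1.55 and 2.38 CPM for ENSRNOG00000028137 and at 0.12 and 0.45 CPM for ENSRNOG00000015308, far below canagliflozin. Exercise library 57 was at 9.58 and 1.65 CPM for these IDs, within the canagliflozin range on that scale (9.37 to 14.3 and 1.35 to 3.44 CPM), while the 2 other exercise libraries were at most 4.36 and 0.73 CPM. ENSRNOG00000007607 was at 109 and 202 CPM in control and 69.4 to 158 CPM in the exercise group, against 31.0 to 44.0 CPM with canagliflozin. ENSRNOG00000012458 was at 11.5 and 103 CPM in control, and at 1.88 to 6.27 CPM in the exercise group, which overlaps the 2.67 to 5.81 CPM of canagliflozin. In deposited FPKM, counts scaled by library total and gene model length, the 2 control libraries were at 35.5 and 36.1 for ENSRNOG00000007607. For ENSRNOG00000012458 they were at 4.71 and 23.3 FPKM. The difference between the controls for ENSRNOG00000007607 thus depends on the scaling over 11 libraries.

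All 4 IDs were among the 9 genes that DESeq2 called, with DESeq2 adjusted p-values of 0.000182 for ENSRNOG00000028137 and ENSRNOG00000007607, 0.028 for ENSRNOG00000015308 and 0.048 for ENSRNOG00000012458. Over the other alternatives with all 6 libraries none of the 4 passed. With libraries left out, in 15 fits, DESeq2 called them in 8, 2, 9 and 4 fits (ENSRNOG00000028137, ENSRNOG00000015308, ENSRNOG00000007607 and ENSRNOG00000012458), and their DESeq2 adjusted p ran from 1.07e-07 to 1. The 9 calls had groups that did not overlap, absolute log2 fold changes of 1.55 to 6.71 and ranks of 1 to 13 by edgeR p. Mean levels were low, with 6 of the 9 under 10 CPM and a range of 1.26 to 80.3 CPM.

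Leaving out library 98 or 78 changed the number of genes near the threshold and their balance of directions. Without library 98, no gene was called by edgeR (lowest adjusted p 0.544). The number with an unadjusted p under 0.05 went from 572 (4.03% of those tested) to 1298 (8.95%). They were then 596 higher and 702 lower with canagliflozin, so the majority of higher genes was gone. Without library 78 the edgeR calls were also 0, and the number at that unadjusted p was 1277 (8.79%), 887 higher and 390 lower. DESeq2 called 116 of 4401 genes without library 98, 22 higher and 94 lower. Without library 78 it called 99 of 13694, 76 higher and 23 lower. Without library 98, DESeq2 gave an adjusted p to 4401 genes only, since it filters on the mean count with a cutoff it sets itself. Of its 9 earlier calls 8 were not among them, at unadjusted DESeq2 p-values of 1.29e-07 to 0.000333. The remaining one, ENSRNOG00000007607, was called. Absolute log2 fold changes of the 9 earlier calls in that fit were 1.49 to 6.12, against 1.55 to 6.71 with all libraries. Without library 78, 6 of the 9 were called, and 1 had no adjusted p.

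Leaving out any of the other 4 libraries gave at most 604 genes at that unadjusted p and at most 26 DESeq2 calls. Genes at an unadjusted p under 0.05 numbered 310 (2.13%) without library 79, 604 (4.15%) without 119, 246 (1.7%) without 133 and 290 (2.01%) without 143. DESeq2 called 10 of 19884, 8 of 19849, 26 of 15899 and 4 of 19683 genes in these fits. Among them were 4, 3, 4 and 1 of the 9 calls made with all libraries. All 275 genes that were 2-fold apart with no overlap kept their direction without each of the 6 libraries, which non-overlapping groups fix in advance. Of these genes 141 stayed at least 2-fold apart in each of the 6 fits.

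**Figure D4:**
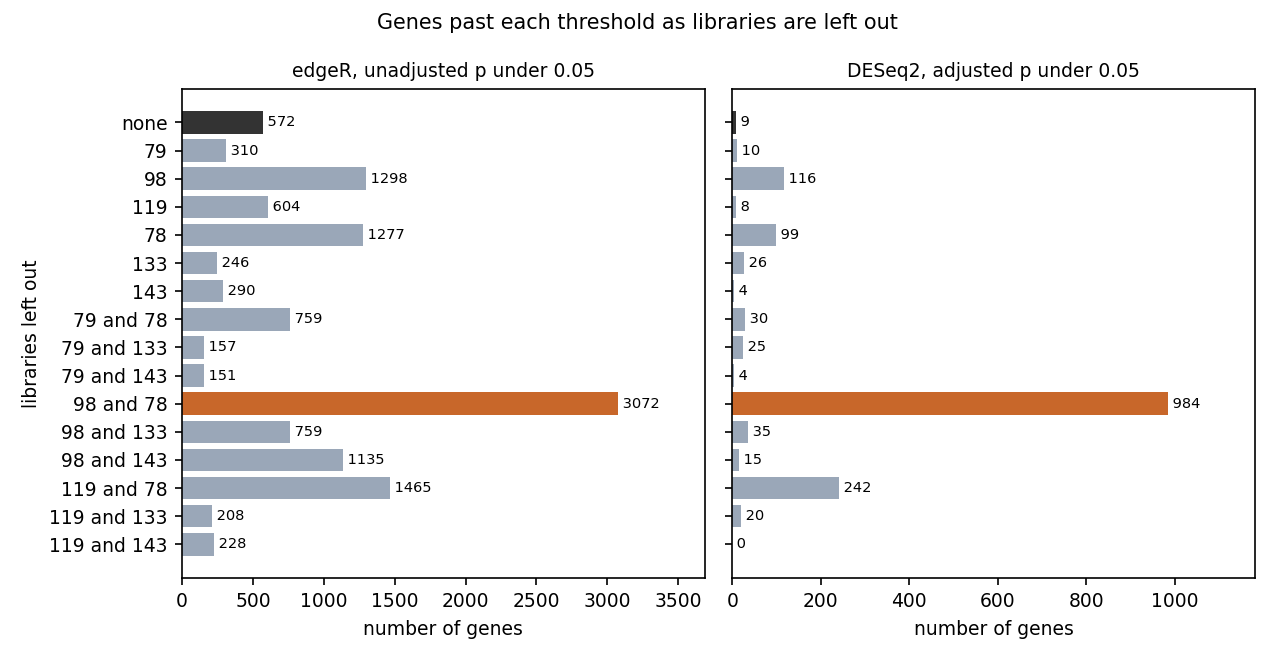
Number of genes (horizontal axes) at an unadjusted edgeR p under 0.05 (left) and at a DESeq2 adjusted p under 0.05 (right) with all 6 libraries (black) and with the libraries named on the vertical axis left out. The highest bars, 3072 and 984 genes (21.4% and 6.98% of those tested), are for the fit without libraries 98 and 78 (orange).

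Without both libraries, 79 and 119 were compared with 133 and 143. edgeR called 6 of 14358 genes (0.0418%), 4 higher and 2 lower with canagliflozin, at adjusted p-values of 0.0265 to 0.0414. DESeq2 called 984 of 14105 genes (6.98%), 501 higher and 483 lower. The biological coefficient of variation, the spread between libraries beyond counting noise, fell from 0.41 to 0.23. Libraries 98 and 78 were left out because they lay apart from their groups. A smaller spread and more calls therefore follow in part from that choice. Of the 9 genes that DESeq2 called with all libraries, DESeq2 again called 8 in this fit, and the 6 edgeR calls included 0. The libraries of this fit are part of those that gave the 9 calls, so this overlap is no independent check. Of these 6 edgeR calls 5 were tested over the 6 libraries, and 0 of the 5 had groups that did not overlap there. The 4 IDs were past the threshold with DESeq2 and not with edgeR. The DESeq2 adjusted p was 0.000557 for ENSRNOG00000028137, 0.0469 for ENSRNOG00000015308, 1.07e-07 for ENSRNOG00000007607 and 0.00185 for ENSRNOG00000012458. With edgeR, in the same order, the adjusted p was 0.0764, 0.0821, 0.0671 and 0.115. Libraries 98 and 78 are 1 of 9 possible pairs with 1 library from each group. Without each of the other 8 pairs, edgeR called 0 genes and DESeq2 0 to 242.

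The genes called without libraries 98 and 78 were then read in those left-out libraries, which that fit did not use. Of the 984 DESeq2 calls, 968 had a value there. Library 78 differed from library 98 in the called direction in 282 of them (29.1%), against 46.4% of all 14136 genes with a value. The median difference in the called direction was -0.49 in log2 CPM, where the median size of the called log2 fold changes was 1.11. The opposite direction prevailed among the genes called lower (16.2% of 480 in the called direction) and, less far from an even split, among those called higher (41.8% of 488). Of the 5 edgeR calls with a value in both left-out libraries, 1 had the same direction. This is 1 library against 1, without a replicate check, and genes are not independent of each other. Libraries 98 and 78 were also chosen because they lay apart from their groups in these same data. Their direction is therefore no independent check of the called genes.

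**Figure D5:**
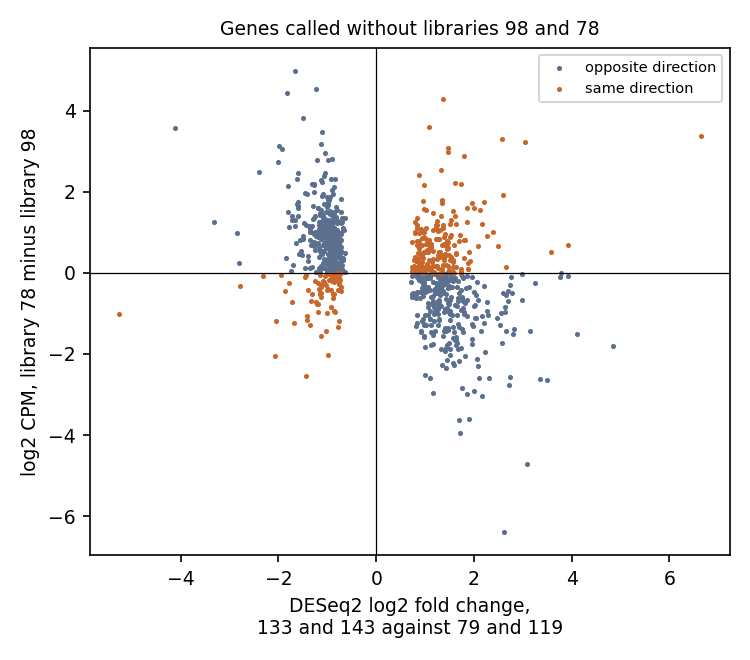
For the 968 genes called by DESeq2 without libraries 98 and 78, the log2 fold change in that fit (horizontal axis) and the log2 CPM of library 78 minus library 98, which the fit did not use (vertical axis). Each point is a gene, and orange marks the 282 with the same direction on both axes.

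The same reading was made for each of the 9 pairs. For libraries 119 and 78, the pair with the next highest number of DESeq2 calls, 23 of 236 called genes (9.75%) had the called direction in the left-out libraries, against 36.1% of all genes. For 79 and 78 it was 11 of 23 (47.8%), against 42.8% of all genes. For 98 and 143 it was 6 of 14 (42.9%), against 39.6%, and for 98 and 133 it was 7 of 19 (36.8%), against 43.3%. For 79 and 133, 79 and 143, and 119 and 133 it was 3 of 7, 1 of 4 and 1 of 4. For 119 and 143 no gene was called. Over all genes, the 5 fits that left out library 98, library 78 or both gave the direction of the left-out pair in 36.1% to 46.4% of genes. The 4 fits that kept both libraries gave it in 57.2% to 63.1%.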

How the data were processed

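Per the file headers, the deposited table gives a raw count and an FPKM value for each Ensembl gene and library. CASAVA 1.8 and TopHat2 2.0.6 are named in the submitters' processing notes. For counting tool, strand setting, genome build and annotation nothing is stated in the labels or headers, so overlapping genes and near-identical copies are uncertain. Deposited FPKM served to derive gene model lengths from the ratio of count to FPKM (41.4% of tested lengths were a multiple of 3). Otherwise FPKM is quoted only for the control libraries.

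Columns were matched to libraries by the number in the titles. No libraries were identical, and chi-square per degree of freedom was 39.9 to 322 for pairs within a group, so each counted as 1 replicate. Deposited counts of the 6 libraries were fitted with edgeR 4.0.16 (R 4.3.3): filterByExpr, TMM, robust quasi-likelihood F test and Benjamini-Hochberg adjustment over all 14211 tested genes. DESeq2 1.42.0, limma-voom (limma 3.58.1) and a surrogate variable from sva 3.50.0 were alternatives. Log2 CPM used a prior count of 2. Fold changes carry SE = |log2 fold change| divided by the root of F. The steps were tested on simulated data. Figures were drawn with matplotlib 3.10.9.

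The rule for named genes asked for a symbol, at least 1 CPM and the smallest p in each direction. Since 0 IDs have a symbol here, it was kept for 2 IDs per direction, and the planned gene lists were not analysed here. The comparison, lists and rule were chosen with earlier results of these data known. Libraries 98 and 78 were singled out because they lay apart in those results. The fits without the other 8 pairs of libraries, and DESeq2 with libraries left out, were added after seeing the data.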

Additional observations from a re-analysis of the deposited data

How the results depend on the processing

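edgeR called 0 genes with other size factors, with and without filters on low counts, at an adjusted p under 0.1, with all 11 or the 9 isoproterenol-treated libraries, with the length offset or a surrogate variable, after thinning to the smallest library and without the 10 most abundant genes. limma-voom, with or without sample weights, also called 0. DESeq2 called 9 genes, and the fits with libraries left out gave 0 to 6 edgeR calls, the 6 without libraries 98 and 78, and 0 to 984 DESeq2 calls. Genes at an unadjusted p under 0.05 went from 572 to 872 with DESeq2, 1250 with 1 surrogate variable, 3031 with sample quality weights in limma-voom (smallest adjusted p 0.0993) and 151 to 3072 with libraries left out. The sample quality weights were lowest for library 98 (0.207) and library 78 (0.386), against 0.876 to 4.26 for the other libraries. The cause of these changes in number was not tested. DESeq2 tested 4401 genes without library 98 and 19990 with all libraries, because it filters by itself. Genes 2-fold apart with no overlap went from 275 to 546 without a filter, where more genes are tested, and to between 362 and 2195 with libraries left out, where fewer libraries have to be separate. The direction of the 4 IDs with libraries left out is fixed by their choice, since their groups do not overlap. Among the edgeR and limma-voom alternatives 0 passed the threshold for these IDs. DESeq2 called all 4 with 6 libraries, and gave 23 calls among the 56 adjusted p-values of these IDs with libraries left out. No paired analysis was possible because the groups share no library number. Precision is limited by 3 libraries per group and, under 1 CPM, by counts.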
